A study of Homo sapiens with 6 samples.

Results

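The genes described here make, break down and read out the cyclic nucleotides cAMP and cGMP, together with the PPP1R1 family of protein phosphatase inhibitors. They were taken by name from a table of RNA levels in A673 cells, an established human line of Ewing sarcoma origin: the adenylyl cyclases (ADCY), the soluble guanylyl cyclases (GUCY1), the phosphodiesterases (PDE), the subunits of protein kinase A (PRKAC, PRKAR), protein kinase G (PRKG), the A-kinase anchoring proteins (AKAP) and PPP1R1A to PPP1R1C. The rule matched 61 of the 62700 rows, and each name was counted once. Ewing sarcoma cells depend on EWS-FLI1, in which part of the RNA-binding protein EWSR1 is joined to the DNA-binding end of FLI1, an ETS factor. The study compared 3 libraries from A673 cells labelled as EWS-FLI1 knockout with 3 libraries from A673 cells labelled as the parental control with wild-type EWS-FLI1. Cells of both genotypes were grown in DMEM with fetal bovine serum. The labels do not say how the knockout was made, whether the cells are a single clone or a pool, or whether replicates are separate cultures, so the p-values only reflect how far these libraries differ, which may be technical. The series title gives alternative splicing as the interest of the study, and the values used here are gene levels.

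Adenylyl cyclases turn ATP into cAMP when receptors activate the stimulatory G protein, and soluble guanylyl cyclases turn GTP into cGMP when nitric oxide binds them. Phosphodiesterases break both messengers down, and each family differs in substrate and regulation. cAMP binds the regulatory subunits of protein kinase A and frees its catalytic subunits, anchoring proteins hold the kinase at chosen sites, and PPP1R1A and PPP1R1B, once phosphorylated by the kinase, inhibit protein phosphatase 1 and so prolong phosphorylation.

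Levels are given as TMM-normalised CPM, the gene's counts set relative to the scaled total of its library, in the order of replicates 1 to 3. Every log2 fold change sets knockout over parental libraries and comes with its standard error (SE) from edgeR's quasi-likelihood fit, and its p-value is adjusted by the Benjamini-Hochberg method over all 28485 genes tested. A gene is said to have risen or fallen where that adjusted p was below 0.05. The libraries held 301605666 to 310465330 estimated counts in knockout cells and 324069161 to 342624492 in parental cells, so 3 counts amount to between 0.00752 and 0.0117 CPM. EWSR1 had 241, 252 and 242 CPM in knockout libraries against 300.004, 288 and 291 CPM in parental libraries. FLI1 had 53.7, 54.8 and 50.8 CPM in knockout libraries against 39.6, 41.9 and 40.6 CPM in parental libraries. Counts per gene do not separate the fusion transcript from the transcripts of its partner genes, so these values do not check the knockout. As a check of the labels, all 8 Ewing sarcoma markers examined (NR0B1, NKX2-2, CD99, STEAP1, PRKCB, FEV, LIPI and CCND1) fell, beside 37.5% of all genes tested. Their summed level was 760 to 808 CPM in knockout libraries against 3332 to 3425 CPM in parental libraries. The largest parts were CCND1, at a mean of 504 CPM in knockout and 1757 CPM in parental libraries, and CD99, at 258 CPM in knockout and 915 CPM in parental libraries. The 4 epithelial markers (EPCAM, CDH1, KRT5, KRT20) summed to 0.156 to 0.222 CPM in knockout libraries and 0.622 to 0.808 CPM in parental libraries. Of the 3 tested 2 fell, beside the same 37.5% of all genes. KRT20, called lower, had no count in any knockout library and met the filter on low counts only through the parental libraries. Of the blood markers, PTPRC averaged 1.495 ± 0.157 CPM in knockout cells and 0.127 ± 0.0273 CPM in parental cells, and the macrophage marker CD68 averaged 12.2 ± 0.823 CPM in knockout cells and 5.08 ± 0.505 CPM in parental cells (SD, n = 3 each). Both rose, beside 36.3% of all genes tested, and the T cell marker CD3E had too few counts to test. The 4 endothelial markers (PECAM1, CDH5, VWF, CLDN5) summed to 8.43 to 9.30 CPM in knockout libraries and 0.580 to 0.705 CPM in parental libraries. Most of the knockout sum was PECAM1, which rose. VWF rose to a mean of 0.249 CPM in knockout libraries against 0.0347 CPM in parental libraries, CLDN5 fell to 0.106 CPM in knockout libraries against 0.280 CPM in parental libraries, and the cadherin CDH5 averaged 0.142 CPM in knockout and 0.160 CPM in parental libraries and did not pass the test. The part of other cell types in the results was not tested, and in these bulk samples fewer cells of a type and less RNA per cell cannot be told apart.

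Of the 61 genes, 56 had enough counts to be tested. In knockout cells 26 of them were higher, 24 were lower and 6 did not pass the test by edgeR's quasi-likelihood fit. Of the 26, ADCY8, GUCY1A1 and GUCY1B1 had under 10 counts in every parental library and met the filter on low counts only through the knockout libraries, so their calls are no support for their classes. Those shares are 46.4% higher and 42.9% lower, beside 36.3% higher and 37.5% lower among all genes tested. In either direction 89.3% of the 56 were called, beside 73.8% of all genes. The values of the 3 knockout libraries did not overlap those of the 3 parental libraries for 50 of the 56 (89.3%), beside 76.7% of all genes. Changes of more than 1 on the log2 scale were seen for 13 higher genes (23.2%, beside 21.8% of all genes) and 17 lower genes (30.4%, beside 20.3% of all genes). The median log2 fold change was 0.07 over the 56 genes and -0.06 over all genes tested. Both directions were thus represented. The PPP1R1 inhibitors and most phosphodiesterases fell, and with TMM scaling no adenylyl cyclase did. Phosphodiesterases, protein kinase A subunits and anchoring proteins each held genes of both directions. The split into higher and lower genes depended on scaling. With libraries scaled by total count only, which lowers the median of all genes by 0.42 on the log2 scale, 17 of the 56 were higher and 28 lower, so that higher genes made up 37.8% of calls in place of 52.0%. With upper quartile scaling the calls were 22 higher and 25 lower (46.8% higher).

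**Figure D1:**
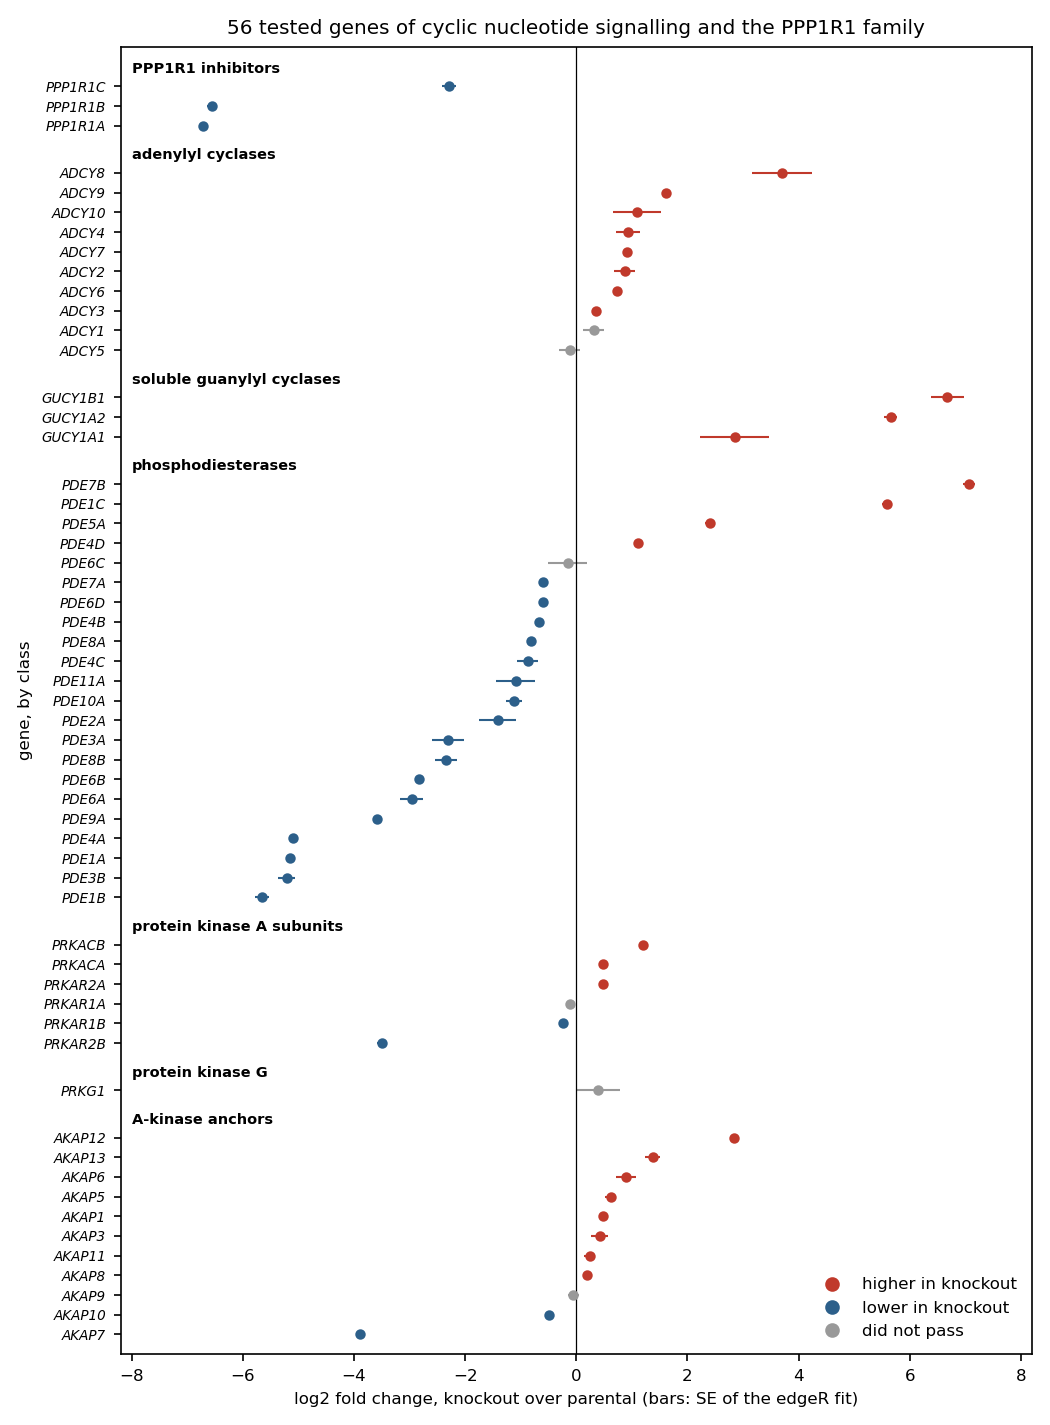
Log2 fold change, knockout over parental, of the 56 tested genes, grouped by class. Points are the edgeR estimates, bars their SE, and colours the call at an adjusted p of 0.05. All 3 PPP1R1 genes lie left of 0 and 17 of 22 phosphodiesterases were called lower, while 8 of 10 adenylyl cyclases were called higher (6 higher and 1 lower with total count scaling). The estimates for ADCY8, GUCY1A1 and GUCY1B1 rest on under 10 counts in each parental library.

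The PPP1R1 inhibitors had the lowest median log2 fold change of the 7 classes, at -6.56. PPP1R1A (ENSG00000135447.17), which encodes protein phosphatase inhibitor 1, had 1.11, 1.14 and 1.10 CPM in knockout libraries against 124, 114 and 114 CPM in parental libraries. Every knockout library was thus far below every parental library, and the means were 1.12 ± 0.0201 CPM in knockout cells and 117 ± 5.88 CPM in parental cells (SD, n = 3 each). Its log2 change was -6.71 (SE 0.07, adjusted p = 1.63e-26 by edgeR's quasi-likelihood test). PPP1R1B (ENSG00000131771.14), the related inhibitor known from dopamine signalling in striatal neurons, had 0.364, 0.328 and 0.421 CPM in knockout libraries against 37.8, 33.4 and 34.1 CPM in parental libraries, with a log2 change of -6.56 (SE 0.09, edgeR adjusted p = 1.5e-24). The third member, PPP1R1C (ENSG00000150722.11), was low in both genotypes, with 0.427, 0.394 and 0.429 CPM in knockout libraries against 2.04, 2.00 and 2.05 CPM in parental libraries. It fell by 2.28 on the log2 scale (SE 0.13, edgeR adjusted p = 3.45e-13). Per kilobase of exon the order in parental cells was PPP1R1A at 29.5 ± 1.48, PPP1R1B at 15.7 ± 1.04 and PPP1R1C at 0.636 ± 0.00871 CPM per kb (SD, n = 3). In knockout cells the same order held at 0.281 ± 0.00504, 0.166 ± 0.0209 and 0.131 ± 0.00623 CPM per kb.

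The counts of PPP1R1A left in knockout libraries were 0.652% of its parental counts, and those of PPP1R1B 0.724%. For comparison, among 3990 genes with a mean of at least 20000 counts in parental cells, the 20 genes with the lowest share in knockout cells kept a median of 0.617%. In the reverse direction the 20 lowest of 3251 such genes kept a median of 0.586% in parental cells. Once that share of the other genotype was subtracted from each library, the log2 fold change of PPP1R1A was -10.90 and that of PPP1R1B -9.26. The size of both falls thus depends on this step. For genes so much lower in knockout cells the subtraction can only enlarge the fall, so it is no test of their direction. Whether parental RNA contributes to the knockout counts was not tested.

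**Figure D2:**
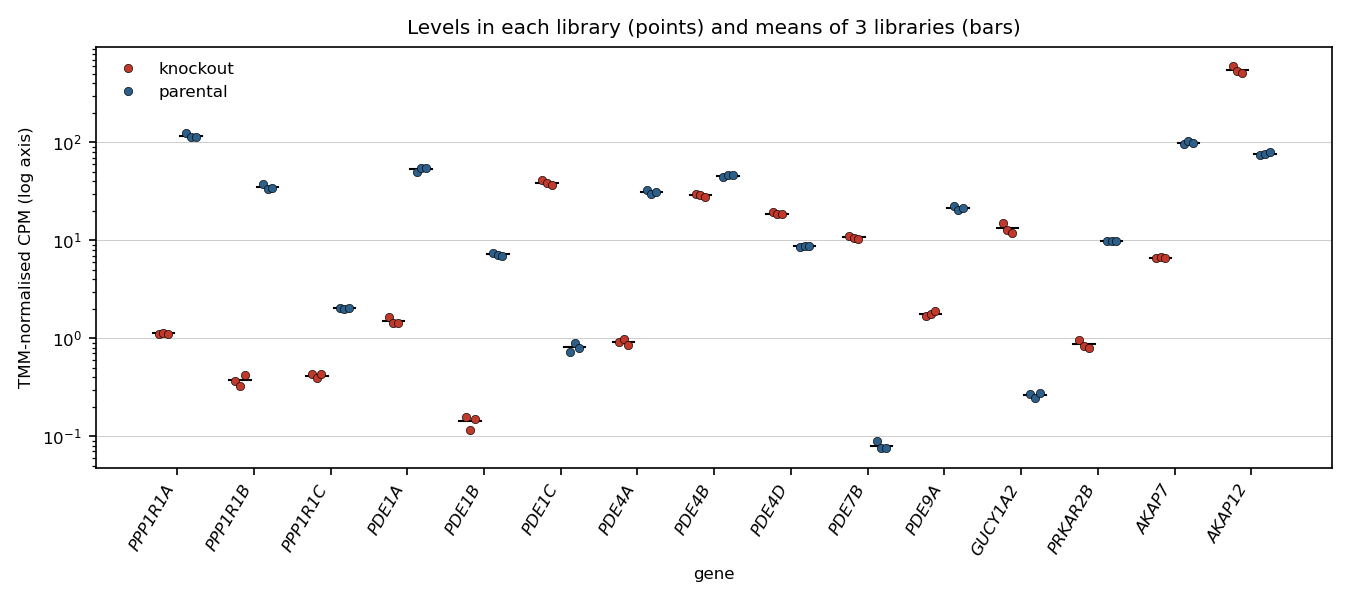
TMM-normalised CPM on a log axis for 15 genes in each of the 3 knockout and 3 parental libraries (points), with the mean of each genotype (short lines). PPP1R1A lies near 1 CPM in the 3 knockout libraries and at 114 to 124 CPM in the 3 parental libraries, while PDE7B, PDE1C, GUCY1A2 and AKAP12 are higher in every knockout library.

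PPP1R1A and PPP1R1C each lie beside a PDE1 gene. In the GENCODE 29 annotation of GRCh38, PPP1R1A occupies chr12:54575387-54588659 on the minus strand and PDE1B occupies chr12:54549350-54579239 on the plus strand, so that their 3′ ends overlap by 3853 bases. PPP1R1C lies on the plus strand at chr2:181954241-182131398 and points towards PDE1A, on the minus strand at chr2:182140036-182523192. Those 3′ ends are 8637 bases apart, with 0 protein-coding genes between them. All 4 genes fell. PPP1R1B lies apart, at chr17:39626740-39636626 on the plus strand. The exons shared with the other gene of the pair make up 11.1% of the exon bases of PPP1R1A and 11.8% of those of PDE1B. The labels state no strand for the counting, so reads there cannot be told apart. PDE1B was the scarcer gene, at a mean of 7.17 CPM in parental cells against 117 CPM for PPP1R1A. How far reads of PPP1R1A enter the counts of PDE1B and its fall was not tested. Among the other genes described here, 2 more pairs lie within 1 Mb. PDE8A and AKAP13 lie on chromosome 15, 241425 bases apart, the first lower and the second higher. GUCY1A1 and GUCY1B1 lie on chromosome 4, 26642 bases apart, and both were called higher. Both met the filter on low counts only through the knockout libraries, so their calls are no support for a common direction.

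**Figure D3:**
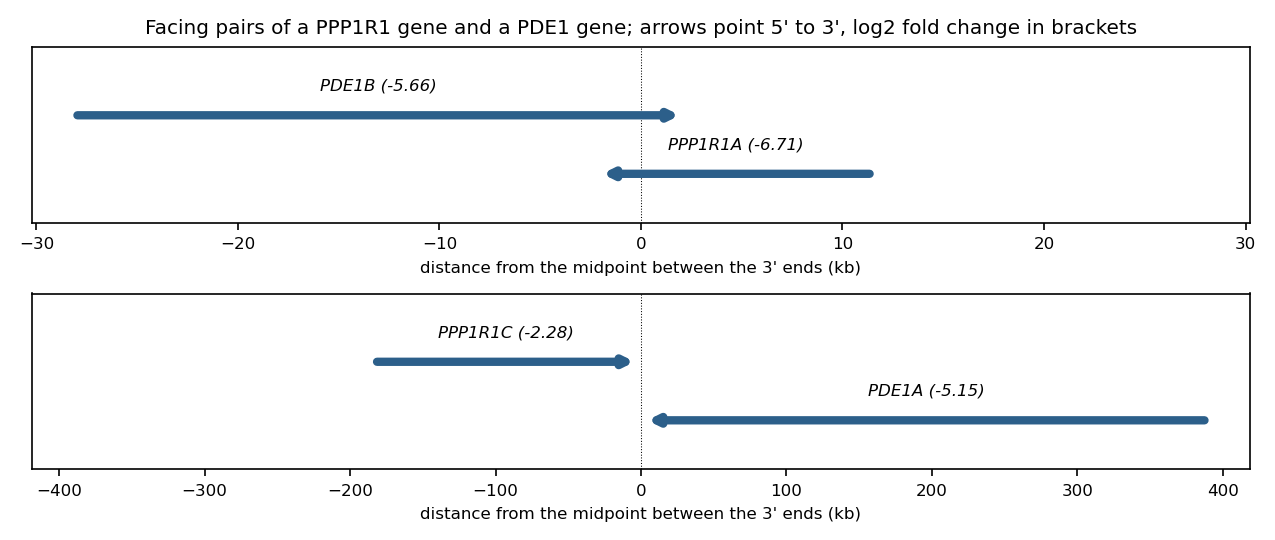
Gene bodies of the facing pairs PDE1B with PPP1R1A and PPP1R1C with PDE1A, drawn to scale as the distance in kilobases from the midpoint between their 3′ ends, with arrows from 5′ to 3′. The first pair overlaps by 3853 bases and the second is 8637 bases apart, and all 4 genes were lower in knockout cells.

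Phosphodiesterases fell more often than they rose: of 22 tested genes 4 were higher, 17 lower and 1 did not pass the test. Among all genes tested 36.3% were higher and 37.5% lower. PDE6D, which encodes a prenyl-binding chaperone and no catalytic enzyme, is counted among the 17 and fell by 0.59 on the log2 scale. The 4 that rose were PDE1C, PDE4D, PDE5A and PDE7B, each beyond 1 on the log2 scale. By substrate, 6 of 8 cAMP-specific, 3 of 5 cGMP-specific and 7 of 8 dual-substrate genes fell. Groups this small were not tested against the share of all genes. The counts over the 22 genes were the same with total count and upper quartile scaling (4 higher and 17 lower each).

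The PDE1 enzymes are activated by calcium and calmodulin and hydrolyse both messengers. PDE1A had 1.66, 1.44 and 1.42 CPM in knockout libraries against 50.2, 54.8 and 55.0 CPM in parental libraries, with a log2 change of -5.15 (SE 0.07, edgeR adjusted p = 2.75e-24). PDE1B fell beside it, with 0.158, 0.116 and 0.152 CPM in knockout libraries against 7.41, 7.11 and 6.9996 CPM in parental libraries (log2 fold change -5.66, SE 0.12, or -6.53 with the shared fraction subtracted). Exons of PPP1R1A cover 11.8% of the exon bases of PDE1B, which makes its counts uncertain. PDE1C went the other way, with 41.0, 38.9 and 36.4 CPM in knockout libraries against 0.732, 0.897 and 0.793 CPM in parental libraries, with a log2 change of 5.59 (SE 0.08, edgeR adjusted p = 4.91e-24). The groups did not overlap for any of the 3 genes, as for 76.7% of all genes tested. In CPM per kb, PDE1C was 91.3 ± 0.471% of the summed PDE1 level in knockout cells and 0.582 ± 0.0453% in parental cells, while PDE1A was 7.51 ± 0.307% in knockout cells and 81.6 ± 1.18% in parental cells (SD, n = 3 each). The summed PDE1 level was 3.29 ± 0.199 CPM per kb in knockout cells and 10.7 ± 0.391 CPM per kb in parental cells. Groups of 3 libraries allow no exact two-sided permutation p below 0.1, which was the value here (0.107 after Benjamini-Hochberg adjustment over the 15 sums and ratios tested). It was the same for each sum given below except that of PDE7. Sums move with the scaling of libraries, while shares within a family do not.

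The make-up of the cAMP-specific PDE4 and PDE7 families changed too, but each kept its largest member. In the PDE8 family PDE8A held 99.7 ± 0.0248% of the summed CPM per kb in knockout cells and 99.2 ± 0.148% in parental cells. PDE4A, a target of rolipram-type inhibitors like its relatives, had 0.923, 0.972 and 0.856 CPM in knockout libraries against 32.9, 29.7 and 31.5 CPM in parental libraries, with a log2 change of -5.10 (SE 0.07, edgeR adjusted p = 5.15e-24). PDE4B fell less, with 29.7, 29.4 and 27.7 CPM in knockout libraries against 44.5, 47.0 and 46.2 CPM in parental libraries (log2 fold change -0.67, SE 0.05). PDE4D rose, with 19.3, 18.4 and 18.4 CPM in knockout libraries against 8.65, 8.70 and 8.79 CPM in parental libraries (log2 fold change 1.10, SE 0.06). The groups did not overlap for any of these genes, as for 76.7% of all genes tested. These genes thus held 2 falls of very different size and a rise. In CPM per kb PDE4A made up 2.38 ± 0.109% of the PDE4 sum in knockout cells and 38.8 ± 1.78% in parental cells, and PDE4B was the largest member in both, at 73.2 ± 0.576% in knockout cells and 55.3 ± 1.73% in parental cells. PDE4C was under 1 CPM in both genotypes (log2 fold change -0.87, SE 0.19), and 85.8% of its exon bases lie under exons of another gene on the same strand, so its counts are uncertain.

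PDE7B, a rolipram-insensitive cAMP enzyme, showed the largest rise of any phosphodiesterase among the 22. It had 11.2, 10.6 and 10.3 CPM in knockout libraries against 0.0893, 0.07504 and 0.0752 CPM in parental libraries, with a log2 change of 7.07 (SE 0.11, edgeR adjusted p = 2.65e-23). Each parental library stood below 0.1 CPM. Its relative PDE7A fell to 18.8 ± 0.825 CPM in knockout cells, against 28.3 ± 1.70 CPM in parental cells (log2 fold change -0.59, SE 0.06). The summed PDE7 level in CPM per kb was 5.25 ± 0.216 in knockout cells and 5.05 ± 0.302 in parental cells, with overlapping libraries (exact two-sided permutation p = 0.4), yet PDE7B was 36.2 ± 0.426% of it in knockout cells and 0.282 ± 0.0429% in parental cells. The parental counts of PDE7B were 1.09% of its knockout counts, and with the shared fraction subtracted its log2 fold change was 8.19. PDE8A, a high-affinity cAMP enzyme and the phosphodiesterase with the most counts, had 43.2, 42.8 and 40.0 CPM in knockout libraries against 71.5, 74.6 and 74.5 CPM in parental libraries (log2 fold change -0.81, SE 0.05, edgeR adjusted p = 1.72e-12). PDE8B was near or under 1 CPM in both genotypes and fell by 2.34 on the log2 scale (SE 0.19). Over the 8 cAMP-specific genes the sum was 21.9 ± 0.843 CPM per kb in knockout cells and 36.6 ± 0.653 CPM per kb in parental cells.

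Among the cGMP-specific enzymes PDE5A, the target of sildenafil, rose: it had 8.27, 8.36 and 7.64 CPM in knockout libraries against 1.42, 1.53 and 1.64 CPM in parental libraries (log2 fold change 2.40, SE 0.09, edgeR adjusted p = 7.69e-17). PDE9A, which has a high affinity for cGMP, had 1.71, 1.77 and 1.89 CPM in knockout libraries against 22.7, 20.6 and 21.4 CPM in parental libraries (log2 fold change -3.59, SE 0.07). The photoreceptor genes PDE6A and PDE6B fell too, PDE6B to a mean of 1.83 ± 0.120 CPM in knockout cells against 13.0 ± 0.574 CPM in parental cells (log2 fold change -2.82, SE 0.07). Exons of the opposite strand cover 11.7% of the exon bases of PDE6B. Knockout libraries lay above all parental libraries for PDE5A and below all of them for PDE9A, PDE6B and PDE6A. Such a separation was seen for 76.7% of all genes tested. PDE6A averaged 0.109 ± 0.0354 CPM in knockout cells and 0.841 ± 0.0263 CPM in parental cells. The cone gene PDE6C lay near 0.1 CPM in both genotypes and missed the test (log2 fold change -0.16, SE 0.35, edgeR adjusted p = 0.697). The remaining dual-substrate genes were lower and mostly scarce. PDE3B, an enzyme that cGMP inhibits, averaged 0.139 ± 0.0392 CPM in knockout cells and 5.14 ± 0.179 CPM in parental cells (log2 fold change -5.21, SE 0.15). PDE3A, PDE2A, PDE10A and PDE11A averaged at most 1.28 CPM in either genotype, with log2 fold changes of -2.32, -1.42, -1.13 and -1.09. The call for PDE11A was lost without parental replicate 3 (edgeR adjusted p = 0.0757). Of the exon bases of PDE11A 34.0% lie under exons of a second annotated gene of the same name on the same strand. Of those of PDE8B 43.4% lie under exons of another gene on the same strand. The counts of both are therefore uncertain.

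For 3 of the genes an annotated promoter holds a copy of the cAMP response element, TGACGTCA, the palindrome bound by CREB-type factors. Promoters were read from RefSeq on GRCh38.p14 as 300 bases, 250 before and 50 from the annotated start, and 50 of the 61 genes matched with 121 entries. The palindrome was found in 4 of the 121 entries (3.31%), beside 1.85% of all 35116 entries. The 4 belong to PDE7B, PDE4A and PRKAR1A, which has 2 overlapping entries with it. PDE4A and PRKAR1A also have entries without it, and which start A673 cells use was not tested. The genes differ in direction: PDE7B rose, PDE4A fell and PRKAR1A did not pass the test. The sequences are shown, 1 entry a gene, because the same element stands in genes that went opposite ways. Capitals mark 3 short motifs on either strand: TGACG, which the palindrome holds once on each strand, the ETS core CCGGAA, and a tandem of the letters that FLI1 binds, GGAAGGAA.
PDE7B promoter, chr6:135851451-135851750, plus strand: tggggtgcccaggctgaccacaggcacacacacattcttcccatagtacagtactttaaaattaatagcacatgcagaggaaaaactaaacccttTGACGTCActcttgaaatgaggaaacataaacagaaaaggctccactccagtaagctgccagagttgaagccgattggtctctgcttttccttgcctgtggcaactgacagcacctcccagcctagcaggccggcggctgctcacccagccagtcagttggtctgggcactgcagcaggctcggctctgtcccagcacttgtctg
PDE4A promoter, chr19:10416523-10416822, plus strand: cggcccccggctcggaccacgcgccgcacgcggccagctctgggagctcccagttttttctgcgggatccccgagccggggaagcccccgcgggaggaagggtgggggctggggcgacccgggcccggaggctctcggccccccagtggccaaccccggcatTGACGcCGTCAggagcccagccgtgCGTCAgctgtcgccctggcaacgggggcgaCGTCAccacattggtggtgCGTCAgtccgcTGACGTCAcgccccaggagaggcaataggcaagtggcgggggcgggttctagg
PRKAR1A promoter, chr17:68512129-68512428, plus strand: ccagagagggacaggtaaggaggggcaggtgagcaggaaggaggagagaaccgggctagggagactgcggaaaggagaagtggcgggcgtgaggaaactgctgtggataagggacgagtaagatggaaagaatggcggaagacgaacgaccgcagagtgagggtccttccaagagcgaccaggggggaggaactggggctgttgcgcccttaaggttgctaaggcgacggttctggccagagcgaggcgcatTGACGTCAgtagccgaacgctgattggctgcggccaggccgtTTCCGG
In the PDE4A entry 7 copies of TGACG were found on the 2 strands together, counting those within the palindrome, and in each of the PDE7B and PRKAR1A entries 2. TGACG alone is common, in 23.1% of the entries of these genes beside 24.6% of all entries. The ETS core stood in 17.4% of the entries beside 17.2% of all, and the GGAA tandem in 1.65% beside 3.67% of all. These matches describe letters in a short window only.

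The adenylyl cyclases that passed the test were higher in knockout cells with TMM scaling. Of 10 tested genes 8 were higher (ADCY8 among them, which met the filter on counts only through the knockout libraries), 0 lower and 2 did not pass. Among all genes tested 36.3% were higher and 37.5% lower. For the 10 cyclases total count scaling gave 6 higher and 1 lower. ADCY6, a calcium-inhibited cyclase and the most counted, had 65.4, 67.5 and 67.6 CPM in knockout libraries against 41.9, 38.7 and 40.3 CPM in parental libraries (log2 fold change 0.73, SE 0.05, edgeR adjusted p = 8.92e-12). Exons of the opposite strand cover 10.5% of the exon bases of ADCY6. ADCY9, which forskolin activates poorly, had 48.2, 43.8 and 40.6 CPM in knockout libraries against 14.4, 14.1 and 14.9 CPM in parental libraries (log2 fold change 1.61, SE 0.06, edgeR adjusted p = 2.91e-16). Its 3 knockout libraries lay well above the parental ones, the widest separation among the abundant cyclases. ADCY7, which G protein beta-gamma subunits help to activate, had 8.92, 8.19 and 8.90 CPM in knockout libraries against 4.78, 4.70 and 4.43 CPM in parental libraries (log2 fold change 0.90, SE 0.07), but 49.7% of its exon bases lie under exons of the opposite strand. ADCY3, the cyclase of olfactory neurons, had 39.1, 38.8 and 37.8 CPM in knockout libraries against 31.4, 28.9 and 30.7 CPM in parental libraries (log2 fold change 0.35, SE 0.05, edgeR adjusted p = 2.42e-06), a direction that total count scaling turned (-0.08, edgeR adjusted p = 0.107). Exons of the opposite strand cover 21.7% of its exon bases.

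The other cyclases were scarce. ADCY2 averaged 0.458 ± 0.0503 CPM in knockout cells and 0.252 ± 0.0395 CPM in parental cells, and ADCY4 0.328 ± 0.0334 CPM in knockout cells and 0.172 ± 0.0204 CPM in parental cells. Both rose (log2 fold changes 0.87 and 0.93). Exons of another gene on the same strand cover 10.3% of the exon bases of ADCY4. ADCY8 averaged 0.0951 ± 0.0243 CPM in knockout cells and was at the level of 3 counts in parental cells, so neither a fold change nor a p is given. The soluble bicarbonate-activated cyclase ADCY10 averaged 0.0761 ± 0.0246 CPM in knockout cells and 0.0352 ± 0.0145 CPM in parental cells (edgeR adjusted p = 0.0279), a call lost with total count and upper quartile scaling, with DESeq2, with the replicate number as a block and without any of 3 libraries (knockout replicate 2, parental replicates 1 and 2). ADCY1 (log2 fold change 0.31, edgeR adjusted p = 0.131) and ADCY5 (-0.12, edgeR adjusted p = 0.565) missed the test. Summed over the 9 membrane cyclases, the level was 24.9 ± 0.457 CPM per kb in knockout cells and 14.8 ± 0.543 CPM per kb in parental cells. ADCY9 held 22.9 ± 1.57% of that sum in knockout cells and 12.7 ± 0.416% in parental cells.

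The soluble guanylyl cyclase genes were scarce in parental cells, and GUCY1A2 rose. The enzyme joins an alpha and a beta subunit. GUCY1A2, an alpha subunit gene, had 15.2, 12.8 and 11.8 CPM in knockout libraries against 0.268, 0.246 and 0.273 CPM in parental libraries (log2 fold change 5.66, SE 0.11, edgeR adjusted p = 2.37e-20). GUCY1B1, the beta subunit gene, had 0.728, 0.764 and 0.751 CPM in knockout libraries against 0.00525, 0.0106 and 0.00502 CPM in parental libraries. The parental values stand at about the level of 3 counts, so neither a fold change nor a p is given. GUCY1A1 stayed scarce, at 0.0743, 0.0502 and 0.0508 CPM in knockout libraries against 0.0131, 0 and 0.01003 CPM in parental libraries. Both genes met the filter on counts only through the knockout libraries. GUCY1B2 had too few counts to test.

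Both tested catalytic subunit genes of protein kinase A rose. PRKACA, the main catalytic subunit gene, had 151, 150.1 and 140.1 CPM in knockout libraries against 106, 105 and 105 CPM in parental libraries (log2 fold change 0.48, SE 0.05, edgeR adjusted p = 7.28e-09). PRKACB, the second catalytic gene, had 67.0, 63.1 and 57.4 CPM in knockout libraries against 25.6, 27.7 and 28.2 CPM in parental libraries (log2 fold change 1.201, SE 0.06, edgeR adjusted p = 7.61e-14). The groups did not overlap for either gene, as for 76.7% of all genes tested. The call for PRKACA was lost with total count scaling (0.06, edgeR adjusted p = 0.139). PRKACG, a testis gene, had too few counts to test.

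The regulatory subunits went different ways. PRKAR2B, the type II beta regulatory subunit gene, had 0.963, 0.840 and 0.800 CPM in knockout libraries against 9.75, 9.82 and 9.84 CPM in parental libraries (log2 fold change -3.50, SE 0.09, edgeR adjusted p = 1.24e-19). PRKAR2A, its type II alpha relative, had 56.8, 52.7 and 50.8 CPM in knockout libraries against 37.3, 38.7 and 39.4 CPM in parental libraries (log2 fold change 0.47, SE 0.05, edgeR adjusted p = 3.36e-08), a call lost with total count scaling (0.05, edgeR adjusted p = 0.317). PRKAR1A, the regulatory subunit gene with the highest level per kb, had 249, 239 and 222 CPM in knockout libraries against 247, 262 and 255 CPM in parental libraries. Those groups overlap, and the gene missed the test (log2 fold change -0.11, SE 0.05, edgeR adjusted p = 0.0669), although it passed as lower with total count scaling (-0.53), upper quartile scaling (-0.31) and 5 further alternatives. Exons of another gene on the same strand cover 10.4% of the exon bases of PRKAR1A. PRKAR1B averaged 35.6 ± 1.195 CPM in knockout cells and 42.2 ± 2.87 CPM in parental cells (log2 fold change -0.25, SE 0.05, edgeR adjusted p = 0.000368). In CPM per kb the summed catalytic level was 63.7 ± 2.91 in knockout cells and 42.8 ± 0.114 in parental cells, and the summed regulatory level 65.4 ± 3.33 in knockout cells and 71.1 ± 0.930 in parental cells. Regulatory over catalytic was 1.03 ± 0.0112 in knockout cells and 1.66 ± 0.0255 in parental cells (exact two-sided permutation p = 0.1, the smallest that 3 against 3 libraries allow). This ratio within a library does not depend on how libraries are scaled. PRKG1, a cGMP-dependent kinase, averaged 0.0719 ± 0.0116 CPM in knockout cells and 0.0533 ± 0.0109 CPM in parental cells (log2 fold change 0.40, SE 0.38, edgeR adjusted p = 0.351), and PRKG2 had too few counts to test.

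**Figure D4:**
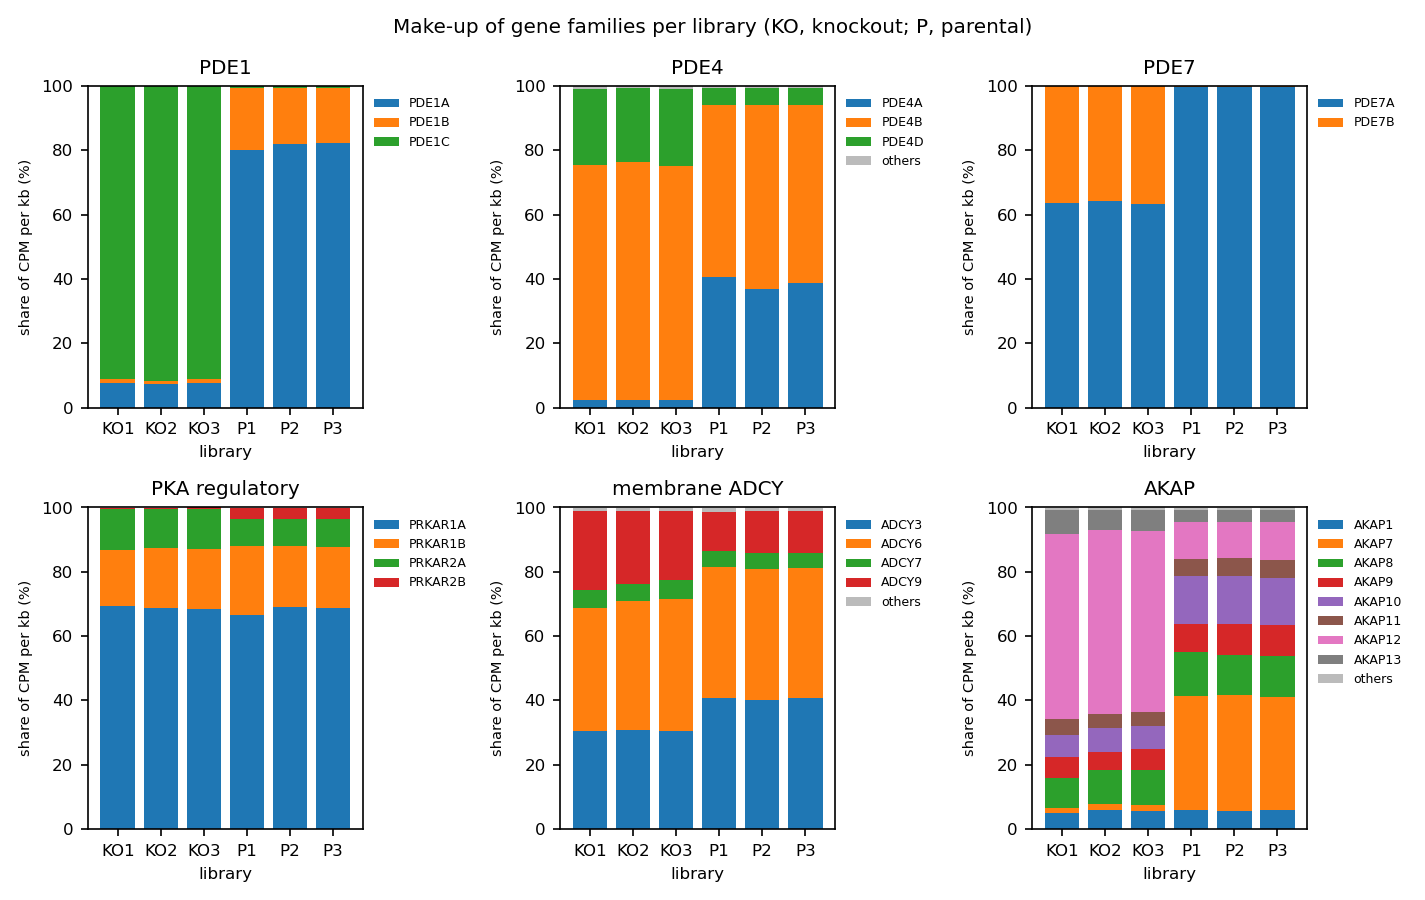
Share of each gene in the summed CPM per kb of its family, in percent, for the PDE1, PDE4, PDE7, protein kinase A regulatory, membrane adenylyl cyclase and AKAP families. Each bar is a library (KO1 to KO3 knockout, P1 to P3 parental). PDE1C fills 91.3% of PDE1 in knockout cells and 0.582% in parental cells, and AKAP12 fills 56.9% of the anchors in knockout cells and 11.4% in parental cells.

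Among the anchoring proteins 8 of 11 tested genes were higher, 2 lower and 1 did not pass, beside 36.3% higher and 37.5% lower among all genes tested. But for these anchors total count scaling gave 3 higher and 4 lower, and upper quartile scaling 5 higher and 2 lower. AKAP12, or gravin, a scaffold at the plasma membrane, had 601, 541 and 509 CPM in knockout libraries against 74.3, 76.4 and 78.9 CPM in parental libraries (log2 fold change 2.85, SE 0.06, edgeR adjusted p = 2.36e-20). AKAP7, a membrane-bound anchor that holds the kinase at ion channels, had 6.62, 6.73 and 6.65 CPM in knockout libraries against 95.6, 103 and 98.8 CPM in parental libraries (log2 fold change -3.89, SE 0.05, edgeR adjusted p = 3.25e-24). These are the widest changes of the family, and both kept their call with every scaling tried. In CPM per kb AKAP12 was 56.9 ± 0.770% of the anchor sum in knockout cells and 11.4 ± 0.248% in parental cells, and AKAP7 1.66 ± 0.124% in knockout cells and 35.6 ± 0.539% in parental cells. AKAP13, a large anchor, had 151, 112 and 115 CPM in knockout libraries against 47.1, 49.4 and 49.6 CPM in parental libraries (log2 fold change 1.37, SE 0.13, edgeR adjusted p = 0.000182). The first knockout library stands above the other two.

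AKAP10 fell, with 33.9, 32.7 and 30.8 CPM in knockout libraries against 44.4, 47.3 and 46.0 CPM in parental libraries (log2 fold change -0.50, SE 0.05, edgeR adjusted p = 1.44e-08). AKAP1, the mitochondrial anchor, had 30.1, 31.6 and 29.04 CPM in knockout libraries against 21.5, 21.3 and 22.4 CPM in parental libraries (log2 fold change 0.48, SE 0.05, edgeR adjusted p = 3.35e-08), a call lost with total count scaling (0.05, edgeR adjusted p = 0.302). AKAP5, a neuronal membrane anchor, and AKAP6, known from the nuclear envelope of heart muscle, rose with log2 fold changes of 0.62 and 0.89 and means under 5 CPM in both genotypes, and the call for AKAP5 was lost with total count scaling (edgeR adjusted p = 0.0636). AKAP8 (0.20), AKAP11 (0.24) and AKAP3 (0.42) were called higher with edgeR adjusted p = 0.0011, 0.0431 and 0.016 in that order, but total count scaling gave AKAP8 as lower (-0.23, edgeR adjusted p = 0.000358), turned AKAP11 (-0.19) and ended the call of AKAP3, and the calls of AKAP11 and AKAP3 were also lost when single libraries were left out. AKAP9, at the centrosome and Golgi, averaged 104 ± 12.1 CPM in knockout cells and 107 ± 9.98 CPM in parental cells and missed the test (log2 fold change -0.05, edgeR adjusted p = 0.663). AKAP4 and AKAP14, testis genes, had too few counts to test.

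Other genes of the pathway were taken as lists, whose counts stand beside 36.3% higher and 37.5% lower among all genes tested and whose medians stand beside -0.06 for all genes. Of 7 genes for protein kinase A inhibitors, protein phosphatase 1 and the kinase PRKX, 5 were higher and 2 lower (3 and 3 with total count scaling), with a median log2 fold change of 0.40. PKIB, an inhibitor peptide of protein kinase A, averaged 28.8 ± 1.26 CPM in knockout cells and 0.881 ± 0.0553 CPM in parental cells (log2 fold change 5.03, SE 0.07, edgeR adjusted p = 4.43e-24), and PKIG 88.8 ± 2.37 CPM in knockout cells and 30.8 ± 1.19 CPM in parental cells (1.53). PPP1CC, a catalytic subunit of the phosphatase that PPP1R1A inhibits, averaged 110.2 ± 3.83 CPM in knockout cells and 234 ± 11.3 CPM in parental cells (-1.09). Among 11 tested genes of the Epac, Popeye and cyclic nucleotide gated channel groups 6 were higher and 3 lower (5 and 3 with total count scaling), with a median of 0.73. The cAMP-binding Popeye genes led: BVES averaged 49.9 ± 3.21 CPM in knockout cells and 0.623 ± 0.0418 CPM in parental cells (log2 fold change 6.32), and POPDC3 25.2 ± 1.35 CPM in knockout cells and 0.142 ± 0.0282 CPM in parental cells (7.46). HCN2, a channel subunit, averaged 79.6 ± 2.32 CPM in knockout cells and 44.7 ± 4.02 CPM in parental cells (0.83). Each of these 6 genes had all knockout libraries on 1 side of all parental libraries, as did 76.7% of all genes tested. The 6 were picked by smallest p, so this is no further support.

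Single receptors and G protein subunits changed widely in both directions. Of 19 tested receptors coupled to Gs or Gi, 11 were higher and 7 lower, also with total count scaling, and their median was 1.45 on the log2 scale. Of these, PTGER2 and CNR1 had under 10 counts in every parental library, and VIPR2, ADCYAP1R1 and DRD2 under 10 in every knockout library. They met the filter on low counts only through the other genotype, so their calls are no support for the list. PTGER3, a Gi-coupled prostaglandin E2 receptor, averaged 1.29 ± 0.0927 CPM in knockout cells and 139.8 ± 3.00 CPM in parental cells (log2 fold change -6.76, edgeR adjusted p = 1.51e-26). PTGER4, a Gs-coupled receptor of the same ligand, averaged 112 ± 3.80 CPM in knockout cells and 2.48 ± 0.0168 CPM in parental cells (5.50, edgeR adjusted p = 3.77e-26). These 2 receptors thus went opposite ways. ADRB3, a beta-adrenergic receptor, averaged 0.666 ± 0.0591 CPM in knockout cells and 66.7 ± 4.18 CPM in parental cells (-6.64). Of 7 G protein alpha subunits 5 were higher and 1 lower (3 and 3 with total count scaling), with a median of 0.48. The 3 named by smallest p all belong to the Gi/o class. GNAO1 averaged 77.3 ± 2.40 CPM in knockout cells and 0.540 ± 0.0255 CPM in parental cells (log2 fold change 7.16), GNAI2 458 ± 11.0 CPM in knockout cells and 165 ± 10.0 CPM in parental cells (1.47), and GNAZ 1.14 ± 0.0485 CPM in knockout cells and 11.8 ± 0.269 CPM in parental cells (-3.36).

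Of 8 tested genes for nitric oxide synthases, natriuretic peptide receptors and membrane guanylyl cyclases, 2 were higher and 6 lower (1 and 6 with total count scaling). The median log2 fold change was -2.63, or -2.18 with GUCY2D, which had no count in any knockout library, set to the level of 3 counts a library. NOS1, a nitric oxide synthase, averaged 0.690 ± 0.0136 CPM in knockout cells and 44.3 ± 1.38 CPM in parental cells (log2 fold change -6.01, edgeR adjusted p = 1.01e-25), and NOS3 0.219 ± 0.0247 CPM in knockout cells and 2.58 ± 0.213 CPM in parental cells (-3.56). NPR3, the clearance receptor for natriuretic peptides, rose to 18.9 ± 0.931 CPM in knockout cells against 0.324 ± 0.0155 CPM in parental cells (5.87). The membrane cyclase genes, named after their values were seen, were scarce and went both ways. NPR2 rose to 2.53 ± 0.433 CPM in knockout cells against 1.94 ± 0.0919 CPM in parental cells (0.38, edgeR adjusted p = 0.0056). NPR1 fell to 0.173 ± 0.0583 CPM in knockout cells against 0.561 ± 0.0397 CPM in parental cells (-1.70). GUCY2F averaged 0.0168 ± 0.0164 CPM in knockout cells and 0.263 ± 0.0143 CPM in parental cells. It had under 10 counts in every knockout library and met the filter on counts only through the parental libraries. No fold change is therefore given for GUCY2F, and its call is no support for the list. GUCY2C had too few counts to test. GUCY2D was at 0 CPM in every knockout library against 0.0723 ± 0.0158 CPM in parental cells, at least 6.34-fold lower, and met the filter on counts only through the parental libraries. Of the 8 cAMP-responsive transcription factors and coactivators 6 were higher and 2 lower, but 2 and 3 with total count scaling, with a median of 0.34. None of the 8 changed beyond 1 on the log2 scale: CRTC3 (0.83), CRTC2 (0.68) and CREM (-0.53) had the smallest p. Of 10 tested genes listed as CREB targets 7 were higher and 3 lower under both scalings, with a median of 1.47. The 3 with the smallest p encode a neurotrophin, a nuclear receptor and a phosphatase of MAP kinases. BDNF averaged 40.0 ± 1.52 CPM in knockout cells and 0.221 ± 0.0226 CPM in parental cells (log2 fold change 7.50), NR4A2 16.6 ± 0.577 CPM in knockout cells and 0.892 ± 0.0604 CPM in parental cells (4.22), and DUSP1 99.6 ± 1.72 CPM in knockout cells and 23.9 ± 1.03 CPM in parental cells (2.06). Among ABCC4, ABCC5 and PDE12, which export or degrade nucleotides, ABCC4 (0.96) and PDE12 (0.62) were higher and ABCC5 (-0.25) lower.

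**Figure D5:**
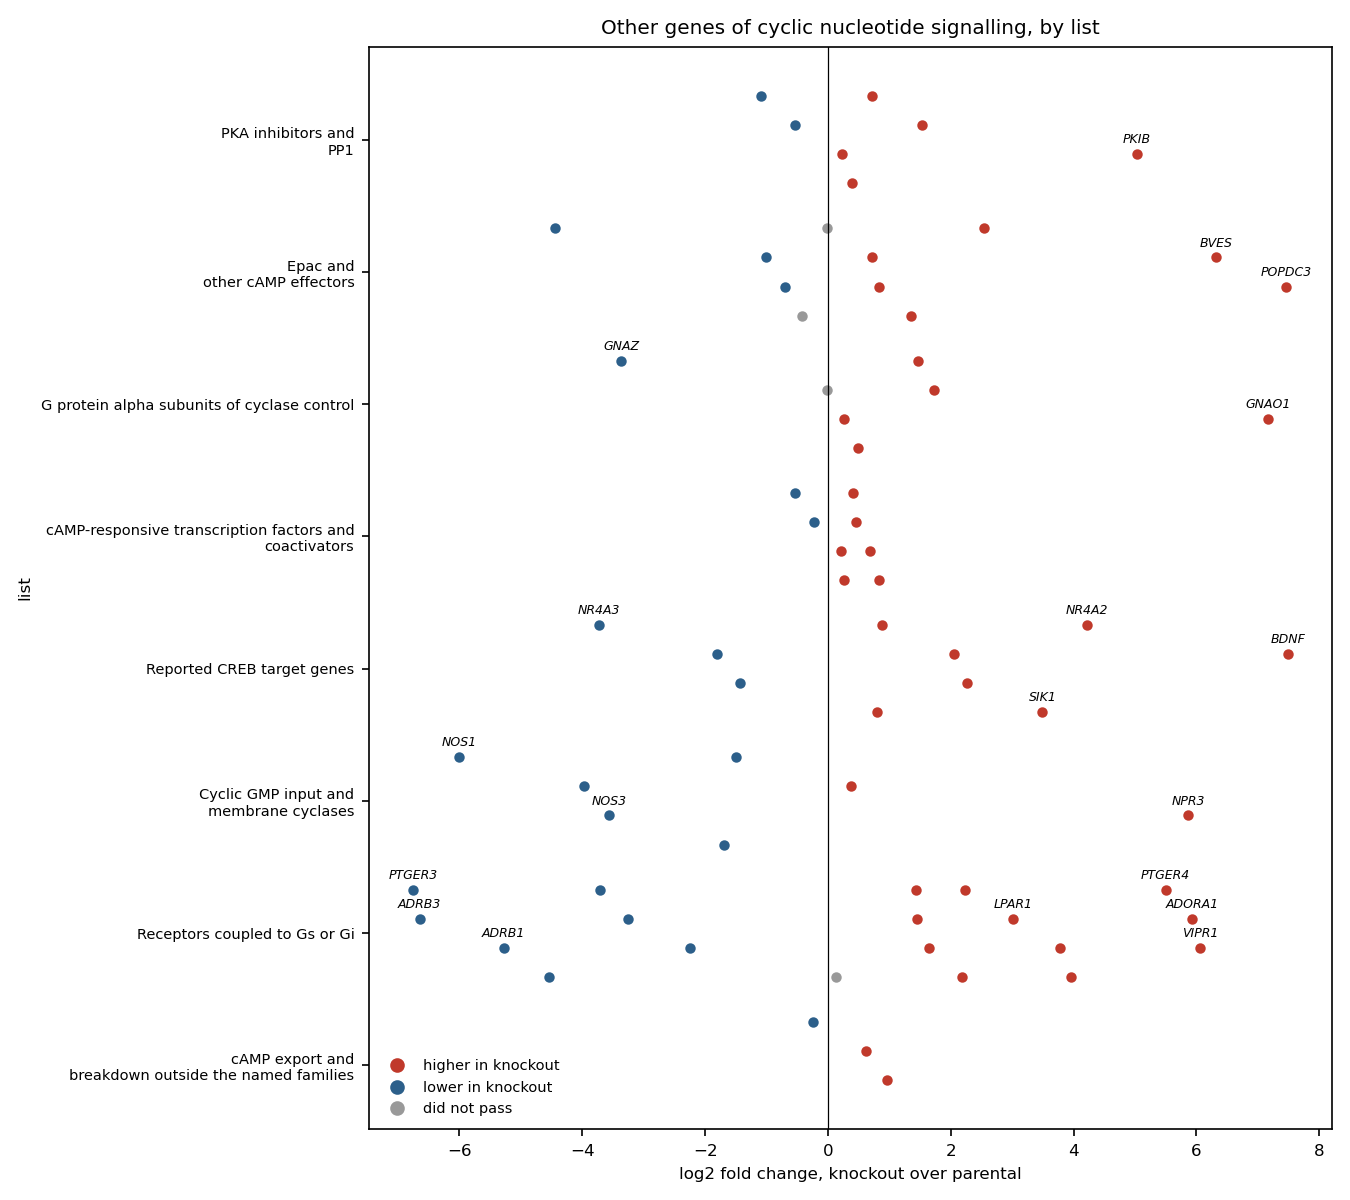
Log2 fold change, knockout over parental, of tested genes from 8 lists around the families described, 1 point a gene, coloured by call; a gene with no count in any knockout library is left out. BDNF (7.50), POPDC3 (7.46) and GNAO1 (7.16) lie farthest to the right and PTGER3 (-6.76) and ADRB3 (-6.64) farthest to the left of those at 1 CPM or more. The points of PTGER2, CNR1, VIPR2, ADCYAP1R1, DRD2 and GUCY2F rest on under 10 counts in each library of 1 genotype.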

How the data were processed

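RNA levels of A673 cells were taken from 6 libraries, 3 knockout and 3 parental. Oligo-dT beads were used to enrich mRNA, per the labels' protocols, which was then made into libraries with an NEBNext Ultra II RNA kit. The authors deposited estimated counts per gene, made with kallisto 0.48.0 on hg38, per the submitters' processing notes. The annotation release, the summing of transcripts to genes and the use of strand are given in none of the sources used here.

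The estimated counts were rounded and passed to edgeR 4.0.16 in R 4.3.3: filterByExpr (minimum count 10, minimum total count 15), TMM scaling, and a robust quasi-likelihood fit with genotype as the only term, two-sided, adjusted by Benjamini-Hochberg over 28485 genes at 0.05. The steps were tested on simulated data in which few genes changed, evenly up and down. Scaling under changes as broad as those seen here was therefore not tested. The SE is the size of the log2 fold change over the square root of F. The biological coefficient of variation was 7.53%. No libraries agreed within sampling noise (chi-square per degree of freedom of 11.1 to 78.1). Intervals are not given for counts. The level of 3 counts covers counting error only. CPM per kb divides CPM of unrounded counts by the merged exon length of GENCODE 29.

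The members and lists were chosen with earlier results of these data known. Every member may be named. Values per library were given for the PPP1R1 genes, for up to 4 tested members a class with the smallest adjusted p and at least 1 CPM, and for the most counted member, and further members were added where they complete a family. From each other list, up to 3 genes with the smallest adjusted p were named. POPDC1 is present under the name BVES, and ICER was not found by name. Alternatives were other scalings, filters, DESeq2 1.42.0, voom from limma 3.58.1, a replicate block, subtraction of a shared fraction, and each library left out. A blood marker of the lists is not reported here.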

Additional observations from a re-analysis of the deposited data

How the results depend on the processing

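Of the 56 tested members 40 kept their direction and their side of the threshold under every alternative in which they were tested. With at least 1 CPM in 3 libraries only 38 of the members were tested, so the scarce ones did not face that alternative. Subtracting the shared fraction moved the log2 fold change of PPP1R1A to -10.90, PPP1R1B to -9.26, PDE1B to -6.53 and PDE7B to 8.19. With at least 1 CPM in 3 libraries, which tests fewer genes, 6650 genes were higher and 6975 lower, and 17 members were higher and 19 lower. With total count scaling 17 members were higher. Leaving out each library gave 10148 to 10562 higher and 9948 to 10852 lower genes, and 23 to 26 higher and 23 to 25 lower members. With total count scaling the log2 fold change reversed for ADCY1 (-0.11), ADCY3 (-0.0769), PRKG1 (-0.0205), AKAP8 (-0.23) and AKAP11 (-0.19), and with upper quartile scaling for AKAP8 (-0.0074). Without knockout replicate 2 it reversed for ADCY5 (0.0584), PDE6C (0.117) and AKAP9 (0.0317), and without parental replicate 2 for PDE6C (0.0385) and AKAP9 (0.0138). Leaving out single libraries moved PDE6C between -0.474 and 0.117 and AKAP9 between -0.133 and 0.0317. The cause was not tested. A call changed when a library was left out for 5 members (ADCY10, PDE11A, PRKAR1A, AKAP3 and AKAP11).

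The replicate numbers did not pair the libraries: same-numbered libraries had deviations correlated at -0.21, -0.07 and 0.03. With the number as a replicate block 24 members were higher and 24 lower, and 10041 genes were higher and 10377 lower. Depth limits the members under 1 CPM in both genotypes, 18 of the 56.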
